A study of Mus musculus with 18 samples.

Results

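The comparison described here is that of mice rotated with free vision against a blank control group, in the hippocampus. The D+V group (5 libraries) was turned in both directions by multi-axis rotation with the eyes uncovered, and the Control group (3 libraries) is labelled a blank control. Its members are all genes with enough counts to be tested, 14763 of the 22063 in the deposited table. Tissue was taken directly after the rotation, and libraries were made from polyadenylated RNA. The sources used here name no strain, sex or age. No label ties a library to an animal of its own, so that p-values speak of the spread over libraries, which may be technical in part. The series holds 18 libraries in all. Its other groups are S-V (5 libraries, rotation in a single direction with vision blocked) and D-V (5 libraries, both directions with vision blocked, the state the labels call the Coriolis illusion). The series asked how such disorienting rotation alters hippocampal transcripts.

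The vestibular organs of the inner ear sense head rotation, and their signals reach the hippocampus over brainstem and thalamic relays, where they help to keep the maps of place and heading. When rotation about several axes is coupled, the vestibular signal no longer matches the movement, and vision is the other main sense that can correct it. Hippocampal neurons answer a change in activity within minutes by transcribing immediate early genes. Levels of most other transcripts follow more slowly, under the control of transcription factors, chromatin enzymes and RNA-binding proteins such as the Hu (Elavl) family, which bind AU-rich elements of messages and set their stability and splicing. The tissue also holds glia and the vessel wall, where endothelial cells form the blood-brain barrier and pericytes, which depend on the Pdgf receptor Pdgfrb, wrap the capillaries. In a bulk sample, fewer cells of a type and less RNA per cell cannot be told apart.

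Control libraries totalled 20.44 to 22.17 M estimated counts and D+V libraries 15.03 to 25.31 M, and mitochondrial transcripts made up 7.44% to 8.90% and 7.80% to 9.02% of them. Levels below are CPM of the scaled library, in the order of the library numbers, and changes are log2 fold changes of D+V over Control from edgeR's quasi-likelihood fit. Genes with a p under 0.05 after Benjamini-Hochberg adjustment over all 14763 genes are called. Hippocampal identity markers were present in all 8 libraries: Prox1 of granule cells ranged from 79.1 to 153 CPM, Wfs1 of CA1 from 102 to 199 CPM and Grik4 of CA3 from 40.2 to 63.0 CPM. Summed choroid plexus markers stood apart in D+V library 2, at 13395 CPM against 446 to 2092 CPM in the other 7 libraries. D+V library 1 also stood apart, in the relation of its counts to GC content and transcript length that is described further on. Libraries of the same number in the 2 groups deviated together. The p-values below do not take this pairing into account unless the block is named, and the count of calls with the number as a block is given.

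In D+V 139 of the 14763 genes (0.942%) passed the test. Of these, 114 rose (0.772% of the genes tested) and 25 fell (0.169%). The changes were moderate. The median over the genes that rose was log2 0.39 and over those that fell -0.34, while the median of all genes tested was -0.00. At an unadjusted p under 0.05 there were 2601 genes (17.6%), of which 1588 were higher (10.8%) and 1013 lower (6.86%). For 1127 of all genes tested (7.63%) the 5 D+V values lay all above or all below the 3 Control values, which was so for 102 of the 114 that rose and 23 of the 25 that fell. Fitted on the 8 D+V and Control libraries alone, 0 genes passed (smallest adjusted p 0.362, 1585 genes at an unadjusted p under 0.05). The count in the joint fit depended on single libraries. It was 0 without Control library 1 (1772 genes at an unadjusted p under 0.05), 2 without Control library 2, 400 without Control library 3, 1260 of 14678 genes (8.58%) without D+V library 1, and 13, 30 and 26 without D+V libraries 3, 4 and 5. With the replicate number as a block 4 genes passed, Elavl2, Tmx3 and Sp3 upward and Pdgfrb downward, each at an adjusted p of 0.0448. Scaling by the upper quartile in place of TMM moved all genes by -0.05 in the median and gave 44 rises and 44 falls.

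Elavl2, which encodes the neuronal Hu protein HuB, had the smallest p of all genes. Its level was 44.5, 49.5 and 49.03 CPM in the 3 Control libraries and 68.5, 67.7, 97.04, 77.9 and 84.04 CPM in the 5 D+V libraries, so that the lowest D+V value lay well above the highest Control value. The change was log2 0.73, SE 0.10, adjusted p = 0.00974. Tmx3, a thioredoxin-like disulfide isomerase of the endoplasmic reticulum membrane, came next. It stood at 47.2, 48.4 and 51.9 CPM in Control and at 63.8, 63.3, 73.5, 69.8 and 60.6 CPM in D+V (log2 0.43, SE 0.07, adjusted p = 0.0153). Again no D+V library reached down to the Control range. Sp3, a zinc finger factor that binds GC boxes of promoters, was at 35.1, 40.4 and 42.7 CPM in Control and rose to 51.7, 56.2, 55.2, 59.7 and 52.9 CPM (log2 0.49, SE 0.08, adjusted p = 0.0153). Zbtb33, whose protein Kaiso binds methylated CpG sites and represses transcription, went from 20.7, 25.8 and 26.7 CPM to 32.8, 32.3, 37.2, 35.1 and 36.7 CPM (log2 0.51, SE 0.09, adjusted p = 0.0157). Hspa13, a member of the Hsp70 family bound to microsomes, went from 35.6, 37.2 and 41.3 CPM to 49.5, 50.8, 49.9, 54.8 and 50.98 CPM (log2 0.43, SE 0.07, adjusted p = 0.0157). For Sp3, Zbtb33 and Hspa13 too, all 5 D+V libraries were above all 3 Control libraries.

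Among the genes that fell, Pdgfrb had the smallest p. Its receptor on pericytes and vascular smooth muscle binds Pdgf-B from endothelial cells. Control libraries held 30.9, 32.7 and 30.2 CPM and D+V libraries 20.7, 19.7, 21.7, 23.6 and 24.4 CPM, with no overlap (log2 -0.51, SE 0.08, adjusted p = 0.0153). Dbn1 encodes drebrin, an actin-binding protein of dendritic spines. It fell from 342, 329 and 319 CPM to 264, 239, 262, 280.0 and 252 CPM (log2 -0.35, SE 0.06, adjusted p = 0.0157). Clasrp, a splicing regulator that interacts with Clk kinases, fell from 23.6, 22.9 and 21.7 CPM to 16.9, 14.4, 14.5, 17.3 and 17.98 CPM (log2 -0.49, SE 0.09, adjusted p = 0.0241). Ppp1r10, the nuclear targeting subunit PNUTS of protein phosphatase 1, fell from 67.7, 70.97 and 67.8 CPM to 51.5, 50.3, 55.8, 58.2 and 55.7 CPM (log2 -0.34, SE 0.07, adjusted p = 0.0331). Sh2d5, an SH2 domain adaptor enriched at the postsynaptic density, fell from 62.4, 59.9983 and 63.6 CPM to 46.4, 50.2, 53.3, 50.2 and 50.5 CPM (log2 -0.31, SE 0.06, adjusted p = 0.0365). Each of these 5 genes was lower in all D+V libraries than in any Control library.

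**Figure D1:**
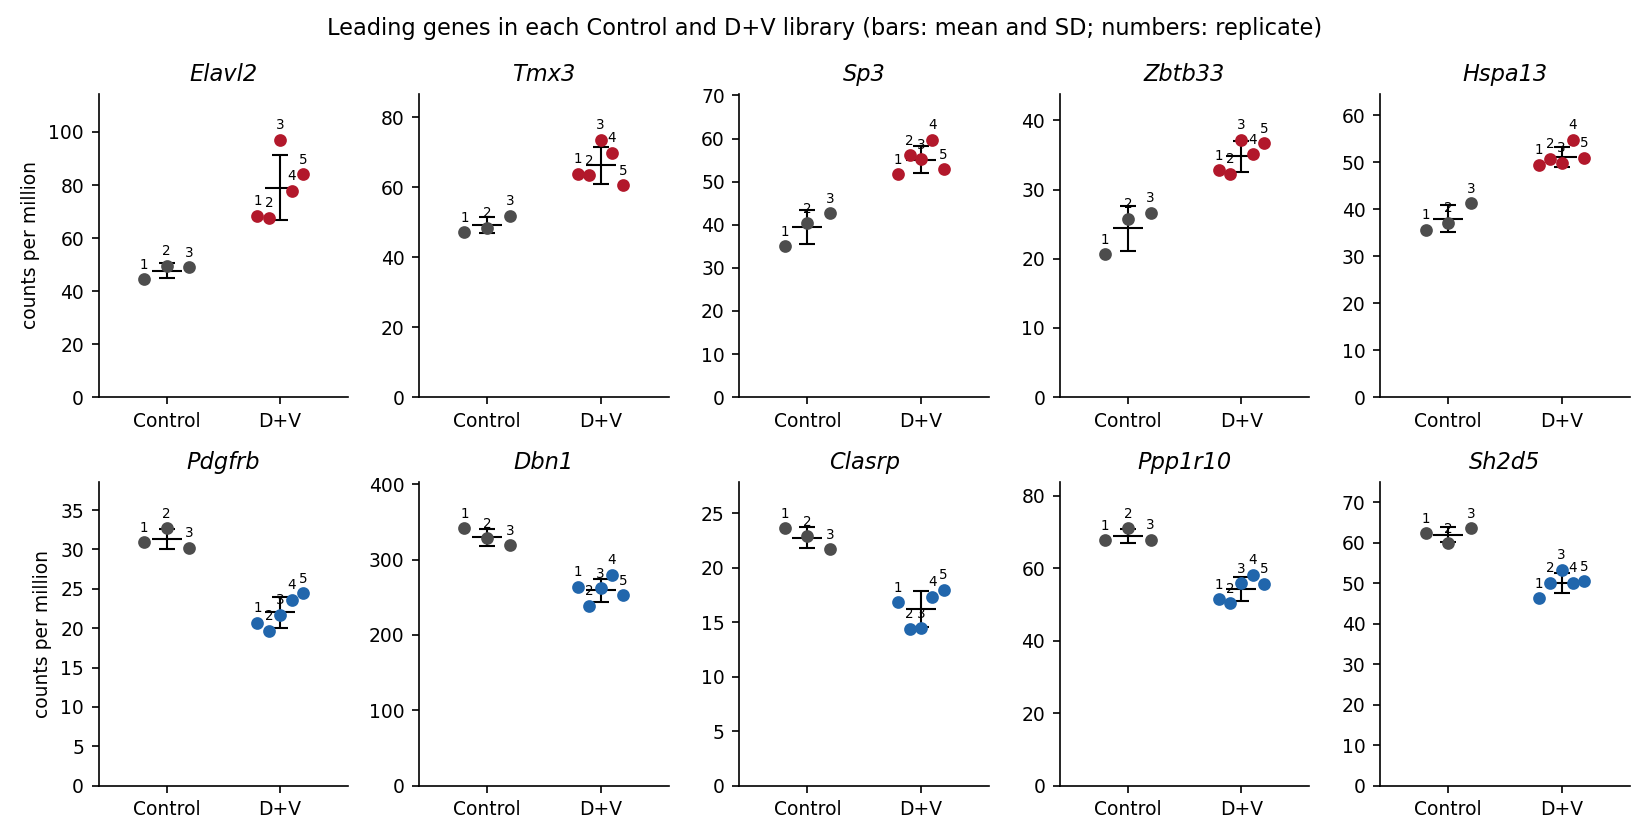
Level (CPM, axes from 0) of the 5 rises (upper row) and 5 falls (lower row) described above in each Control and D+V library (points, numbered by replicate), with bars for the mean and SD. In all 10 genes the 5 D+V points lie on one side of the 3 Control points, for example 67.7 to 97.0 CPM against 44.5 to 49.5 CPM for Elavl2.

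The genes that rose and those that fell differed in median base composition. It is shown here with the 120 bases at the centre of the coding sequence of 3 rises and 3 falls. Tmx3 and Pdgfrb, which had smaller p-values than some of these, are not shown. Sequences are from GENCODE M21 transcripts (build GRCm38, sense strand, 5′ to 3′), and capitals mark each G or C at the third, or wobble, position of a codon.
Elavl2: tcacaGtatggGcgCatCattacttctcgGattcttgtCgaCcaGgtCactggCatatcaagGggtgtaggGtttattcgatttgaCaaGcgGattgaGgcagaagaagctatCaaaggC
Sp3: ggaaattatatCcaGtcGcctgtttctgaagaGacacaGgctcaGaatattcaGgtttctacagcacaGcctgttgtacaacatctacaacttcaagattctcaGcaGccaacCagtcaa
Zbtb33: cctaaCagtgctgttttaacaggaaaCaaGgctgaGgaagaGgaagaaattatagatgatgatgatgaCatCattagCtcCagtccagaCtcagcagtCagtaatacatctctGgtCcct
Dbn1: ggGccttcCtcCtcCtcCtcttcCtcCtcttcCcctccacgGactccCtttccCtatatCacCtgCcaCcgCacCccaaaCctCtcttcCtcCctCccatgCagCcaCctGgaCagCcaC
Clasrp: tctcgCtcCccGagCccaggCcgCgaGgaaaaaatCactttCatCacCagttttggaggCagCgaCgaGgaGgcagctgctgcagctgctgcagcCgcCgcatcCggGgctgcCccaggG
Ppp1r10: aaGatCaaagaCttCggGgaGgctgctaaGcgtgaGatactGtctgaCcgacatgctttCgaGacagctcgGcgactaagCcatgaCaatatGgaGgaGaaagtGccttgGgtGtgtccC
Of the 40 wobble positions in each window, 18 were G or C in Elavl2, 11 in Sp3 and 13 in Zbtb33, against 29 in Dbn1 and 22 each in Clasrp and Ppp1r10. Over the whole coding sequence the share was 50.3%, 37.3% and 35.2% in the 3 rises and 62.2%, 70.1% and 53.2% in the 3 falls. The median over all genes was 61.3%, so that Ppp1r10 lay below it and Dbn1 near it. The 3′ untranslated regions, which are not printed, were 33.4%, 27.5% and 34.9% G or C in the rises, with lengths of 2480, 1642 and 2817 bases. In Dbn1 and Ppp1r10 they were 51.7% and 52.8% G or C and 797 and 1028 bases long, and that of Clasrp was 40.5% G or C over 84 bases, below the 44.5% that is the median over all genes.

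Over all called genes, rises and falls differed in their medians. The 113 rises with a transcript in the annotation had a median GC content of 40.5%, the 25 falls 58.2%, and all genes with a transcript 50.3%. Wobble positions differed more (medians 44.9%, 69.2% and 61.3%), and the 3′ untranslated regions kept the same order (35.8%, 52.8% and 44.5%). The 5′ untranslated regions did not follow this order, with medians of 62.6%, 62.1% and 63.8%. Transcripts of rises were long (median 5054 bases against 3205 over all genes), mainly through 3′ untranslated regions of 2854 bases in the median, against 797 bases in falls and 1181 bases over all genes. Counted by transcript GC content, 48 of 729 genes under 40% rose and 0 fell, as did 55 and 0 of 2629 genes between 40% and 45%, whereas 0 rose and 13 fell among 3007 genes between 55% and 60%. Above 60%, 8 of 772 genes fell and 0 rose.

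This relation ran through all genes, not only the called ones. The median change was log2 0.26 under 40% GC, 0.18 from 40% to 45%, 0.06 from 45% to 50%, -0.05 from 50% to 55%, -0.12 from 55% to 60% and -0.14 above 60%. Per library, the slope of log2 CPM on GC content (each gene centred on its mean over the 8 libraries, per 10 percentage points of GC) was 0.176, 0.115 and 0.0561 in Control and -0.00438, -0.0754, -0.0854, -0.103 and -0.0791 in D+V. All D+V slopes were below all Control slopes (mean -0.0694 ± 0.0378, SD, n = 5, against 0.116 ± 0.06, SD, n = 3). The difference was -0.185, with an exact two-sided permutation p of 0.0179, the smallest that the 56 divisions of these libraries allow. GC slopes were -0.0482 to 0.0151 in S-V and -0.019 to 0.138 in D-V. The slope on log2 transcript length did not separate the groups (difference 0.075, exact permutation p = 0.357). D+V library 1 had a length slope of -0.144, while the other 4 D+V libraries were between 0.0201 and 0.1.

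**Figure D2:**
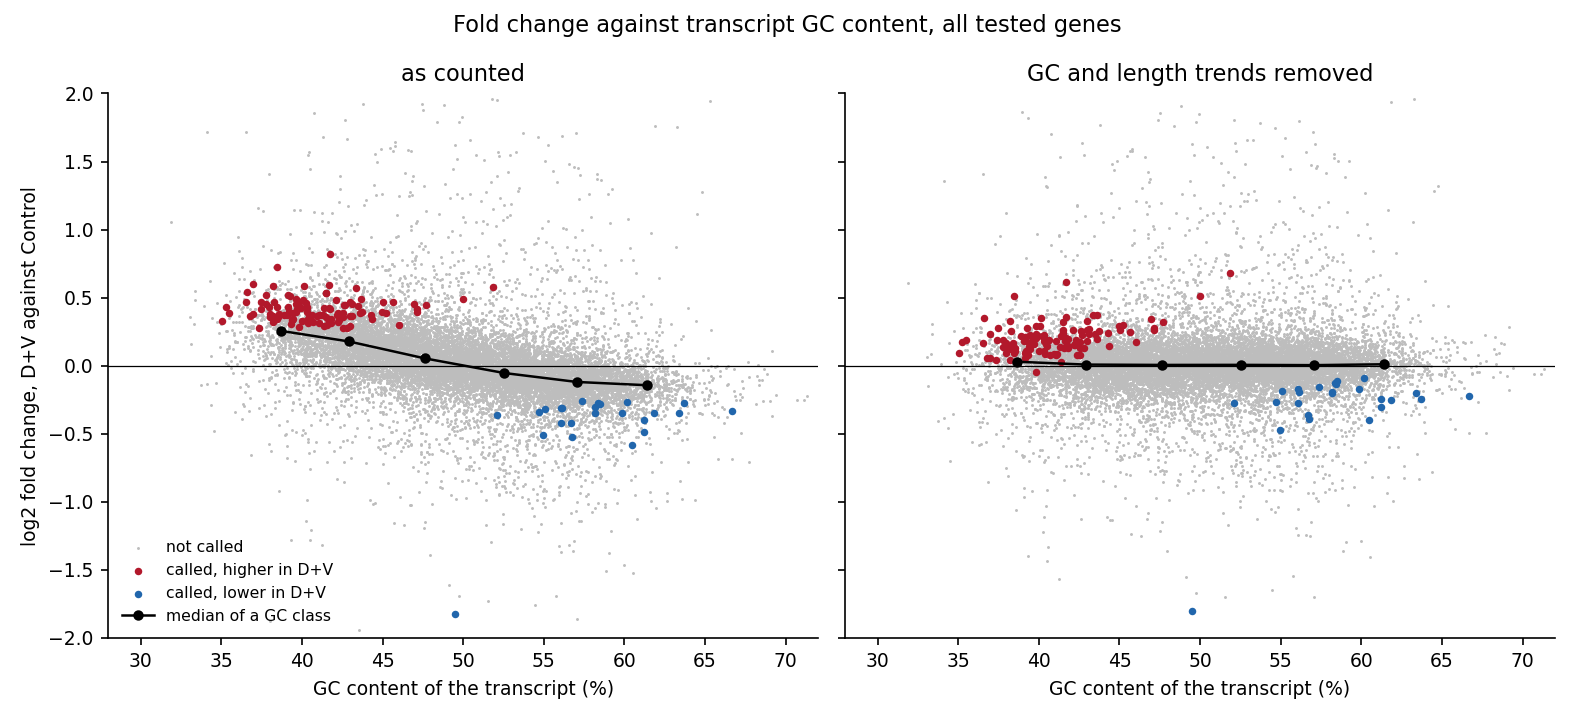
Log2 fold change of D+V over Control against transcript GC content (%) for 14743 genes, as counted (left) and after each library's smooth trend on GC content and length was removed (right), with called genes coloured by direction and black points for the median of 6 GC classes. The class median falls from 0.26 under 40% GC to -0.14 above 60% on the left and stays between 0.00 and 0.03 on the right (42 and 44 genes lie outside the axes).

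**Figure D3:**
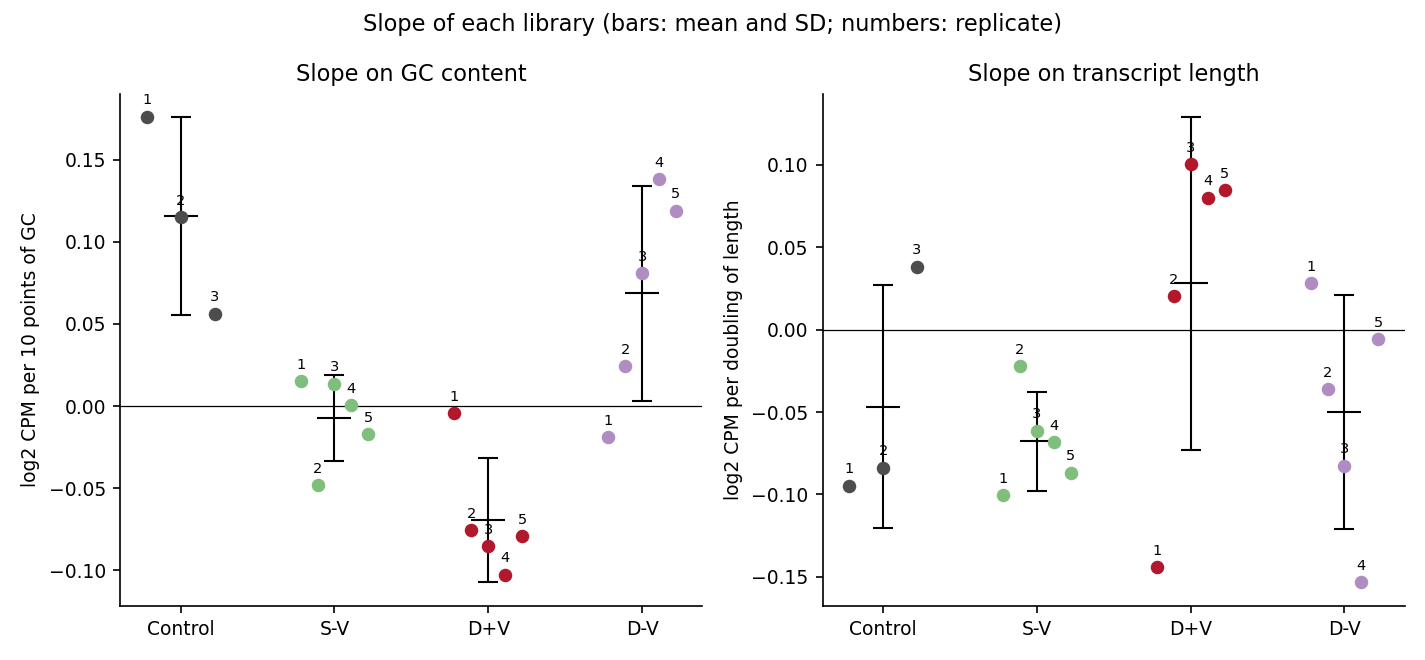
Slope of log2 CPM on GC content and on log2 transcript length in each library of the 4 groups (points, numbered by replicate), with bars for the mean and SD. The 5 D+V GC slopes lie between -0.103 and -0.00438 and the 3 Control slopes between 0.0561 and 0.176, and D+V library 1 has the lowest length slope of these 8 libraries.

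With each library's trend on GC content and length removed, 0 of 14743 genes passed in edgeR (1064 at an unadjusted p under 0.05, smallest adjusted p 0.0599). Of the 138 called genes that could be refitted, 137 kept their direction, and the median change was then 0.19 over rises and -0.23 over falls. The source of the trend was not tested, and the change after its removal is given beside the groups below. It was 0.51 for Elavl2, 0.29 for Sp3, 0.28 for Zbtb33, 0.18 for Tmx3, -0.47 for Pdgfrb, -0.20 for Dbn1 and -0.31 for Clasrp. Pdgfrb thus changed little by it, whereas Tmx3 and Dbn1 had smaller values. An exon of a gene on the opposite strand is overlapped by 35 of the 114 rises and 10 of the 25 falls. Such overlap is common, found for 4492 of all 14763 genes tested. Called genes with it include Sp3 (Sp3os), Zbtb33 (Tmem255a), Fxr1 (Dnajc19) and Vps35 (Orc6), and the sources used here do not state the strand used in counting.

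The gene lists below were chosen with earlier results of these data known, so counts of calls within them do not test a family. Such counts are to be read beside the 0.772% that rose and the 0.169% that fell over all genes tested. Neuronal RNA-binding protein genes were led by Elavl2. Of 49 tested, 6 rose and 0 fell, and the median of the list was 0.19, against -0.00 over all genes. The list median was 0.11 without Control library 1. Beside Elavl2 these were Fxr1, a relative of the fragile X protein (log2 0.34, SE 0.06, adjusted p = 0.026), and Syncrip, an hnRNP that travels with dendritic messages (log2 0.38, SE 0.08, adjusted p = 0.0316). Fxr1 was at 39.9, 41.1 and 41.1 CPM in Control and at 55.6, 50.9, 51.1, 49.5 and 50.2 CPM in D+V, and here the highest D+V value was that of library 1. The translational repressor Pum2 (log2 0.38, SE 0.09), the glial splicing regulator Qk (log2 0.37, SE 0.09) and the double-stranded RNA carrier Stau2 (log2 0.27, SE 0.06) completed the group. Qk was at 226 to 273 CPM in Control and 306 to 360.5 CPM in D+V. The list's transcripts had a median GC content of 44.1%, and its median change was 0.05 with the GC and length trends removed. Pum2, Qk and Stau2 had adjusted p-values of 0.0411, 0.0411 and 0.0423. Outside the lists, and chosen after their values were seen, the m6A reader Ythdf3 (log2 0.34, SE 0.07) and the nuclear matrix protein Matr3 (log2 0.38, SE 0.08) also rose, Matr3 from 275 to 348 CPM to 397 to 439 CPM.

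Transcription factor and chromatin genes added 4 rises on these lists. In the Sp, Klf and Zbtb families 2 of 47 rose, the 2 shown above, with a list median of 0.14 that was -0.00 after trend removal. Zbtb11, a relative of Zbtb33, was not called (log2 0.36, SE 0.09, adjusted p = 0.0548), at 35.5 to 41.1 CPM in Control and 43.4 to 56.9 CPM in D+V. Of 85 chromatin enzyme genes 2 rose. Hdac9, a class IIa histone deacetylase, was at 25.5, 27.99 and 31.4 CPM in Control and 34.5, 35.9, 43.7, 38.3 and 44.1 CPM in D+V (log2 0.47, SE 0.10, adjusted p = 0.0395). Smarca5, the ATPase of ISWI remodelling complexes, went from 45.6 to 56.03 CPM to 62.9 to 67.1 CPM (log2 0.32, SE 0.07, adjusted p = 0.0411). Suz12 of the Polycomb complex missed the threshold (log2 0.42, SE 0.11, adjusted p = 0.0603), with D+V library 1 at 26.7 CPM inside the Control range of 22.1 to 26.8 CPM and the other D+V libraries at 33.2 to 35.7 CPM. Among 365 Zfp zinc finger genes 3 rose, a share near the 0.772% of rises over all genes tested, and the list median was 0.09 and 0.01 after trend removal. These were Zfp748 (log2 0.59, SE 0.13), Zfp281 (log2 0.45, SE 0.10) and Zfp597 (log2 0.46, SE 0.11), and 1 fell, Zfp575 (log2 -0.53, SE 0.13). Adjusted p-values of the 4 were between 0.0397 and 0.0472. Crebrf, a regulator of the unfolded protein response and of glucocorticoid receptor turnover, rose as well (log2 0.52, SE 0.11, adjusted p = 0.0316), a gene chosen after its values were seen.

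Transport between nucleus and cytoplasm was represented by 3 rises among 31 receptor genes tested, with 0 falls. Ipo7, an importin for ribosomal proteins and histones, went from 87.5, 94.3 and 96.03 CPM to 113, 124, 139, 127 and 118 CPM (log2 0.42, SE 0.07, adjusted p = 0.0171). Kpna3, an importin alpha, went from 68.4, 77.3 and 83.3 CPM to 94.7, 93.5, 104, 105 and 105 CPM (log2 0.40, SE 0.08, adjusted p = 0.0316). Both had every D+V library above every Control library. Cse1l, which returns importin alpha to the cytoplasm, went from 55.9 to 62.1 CPM to 65.01 to 79.8 CPM (log2 0.34, SE 0.07, adjusted p = 0.0398). The list median was 0.14 and 0.03 after trend removal. Chosen after their values were seen, Ranbp6 (log2 0.37, SE 0.08), an importin relative, and Nxt2 (log2 0.39, SE 0.08), a partner of the mRNA exporter, rose too.

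Among lists of protein folding and turnover, those of endoplasmic reticulum, ubiquitin and deubiquitinase genes held rises and 0 falls. The heat shock and proteasome lists, described further on, held 0 calls. Among 42 endoplasmic reticulum genes 3 rose, Tmx3, Hspa13 and the mannosidase Edem3 of glycoprotein disposal (log2 0.44, SE 0.09, adjusted p = 0.0395). The list median was -0.02, and -0.02 after trend removal too. Of 311 ubiquitin ligase and conjugating enzyme genes 7 rose and 0 fell (median 0.04, and 0.02 after trend removal). Over all genes tested 0.772% rose. Klhl9, an adaptor of cullin ligases, went from 100.1, 100.4 and 104 CPM to 127, 120.5, 127, 129 and 132 CPM (log2 0.32, SE 0.06, adjusted p = 0.0213). The scaffold Cul3 to which such adaptors bind went from 105, 122 and 119.7 CPM to 149, 139, 154, 154 and 144 CPM (log2 0.36, SE 0.07, adjusted p = 0.0249). Ube3a, the imprinted ligase lost in Angelman syndrome, had one of the largest changes (log2 0.60, SE 0.14, adjusted p = 0.0453), but its D+V values were uneven, at 87.7, 147, 158, 119.8 and 148 CPM against 78.5, 84.6 and 97.7 CPM in Control. D+V library 1 lay inside the Control range and the other 4 were above it. Wwp1 (log2 0.45, SE 0.11), Trim23 (log2 0.41, SE 0.10), the DNA damage ligase Rnf168 (log2 0.38, SE 0.08) and Ube2v2 (log2 0.33, SE 0.07) made up the rest. Of 78 deubiquitinase genes 3 rose (median 0.12, 0.08 without Control library 1 and 0.02 after trend removal), Otud6b (log2 0.34, SE 0.06), the Golgi reassembly factor Vcpip1 (log2 0.38, SE 0.08) and Usp15 (log2 0.37, SE 0.08). Otud6b was tight, at 56.7 to 59.2 CPM in Control and 69.2 to 75.6 CPM in D+V.

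Several of the named rises belonged to no list. Vps35, the core of the retromer that returns receptors from endosomes, stood at 155, 172 and 161 CPM in Control and 206, 203, 216, 199.5 and 199 CPM in D+V (log2 0.33, SE 0.06, adjusted p = 0.0214). Atad1, an ATPase that extracts misplaced tail-anchored proteins and takes AMPA receptors off the synapse, went from 90.4, 96.8 and 105 CPM to 129, 119, 130.3, 123 and 129 CPM (log2 0.37, SE 0.07, adjusted p = 0.0214). Sept7, a septin found at the neck of dendritic spines, went from 196, 219 and 211 CPM to 269.9, 287, 282, 267 and 256 CPM (log2 0.39, SE 0.07, adjusted p = 0.0214). Luzp2 had a larger change (log2 0.58, SE 0.10, adjusted p = 0.0171), from 97.8, 77.02 and 101 CPM to 113, 146, 154, 123 and 153 CPM. Pnpla8, a phospholipase of mitochondria and peroxisomes (log2 0.43, SE 0.07), Rrm2b, the p53-induced subunit of ribonucleotide reductase (log2 0.34, SE 0.06), and Sh3bgrl (log2 0.54, SE 0.10) had adjusted p-values of 0.0171, 0.0214 and 0.0214. Values for Rrm2b were 34.2 to 38.5 CPM and 44.2 to 47.7 CPM, and those for Sh3bgrl 70.1 to 102 CPM and 116 to 136 CPM.

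Synaptic and axonal lists held rises in some genes and falls in others, where 0.772% of all genes tested rose and 0.169% fell. Of 64 synaptic adhesion genes 2 rose, Nectin3 (log2 0.46, SE 0.10, adjusted p = 0.0411) and Lrrtm2 (log2 0.43, SE 0.10, adjusted p = 0.0411). Nectin3 takes part in adhesion between mossy fibre terminals and CA3 pyramidal cells, and Lrrtm2 is a postsynaptic partner of neurexins. The list median was 0.18, and 0.03 after trend removal at a median GC content of 46.9%. Nectin3 was at 24.7, 33.2 and 29.7 CPM in Control and 35.4, 37.6, 45.1, 39.5 and 44.3 CPM in D+V. Among 39 genes of spectrins, ankyrins and the axon initial segment, the axonal adhesion molecule Cntn1 (log2 0.39, SE 0.09, adjusted p = 0.0411) and Fgf12 (log2 0.39, SE 0.09, adjusted p = 0.0411), which binds sodium channels, rose. Sptbn4, the beta IV spectrin that holds sodium channels at the initial segment, fell from 186, 174 and 177 CPM to 144, 127, 159.8, 155 and 153 CPM (log2 -0.28, SE 0.06, adjusted p = 0.0437). Slc4a10, a neuronal bicarbonate transporter, was the 1 call among 283 solute carrier genes (log2 0.48, SE 0.11, adjusted p = 0.0423), a share below that of rises over all genes. There D+V library 1, at 178 CPM, lay inside the Control range of 156 to 179.8 CPM, and the other 4 D+V libraries were between 241 and 266 CPM. Of 95 motor protein and tubulin genes the dynein light chain Dynlt3 (log2 0.37, SE 0.08, adjusted p = 0.0405) and the kinesin Kif21a (log2 0.42, SE 0.10, adjusted p = 0.0499) rose.

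Several synaptic lists had no called gene in edgeR. For comparison, 10.8% of all genes tested were higher and 6.86% lower at an unadjusted p under 0.05. DESeq2 called 594 higher and 165 lower over all genes. Of 32 ionotropic glutamate receptor and auxiliary subunit genes 0 were called, with 6 higher and 8 lower at an unadjusted p under 0.05, and DESeq2 called 0 higher and 1 lower. Gsg1l, an AMPA receptor auxiliary subunit, had the smallest p in the list (log2 -0.47, SE 0.12, adjusted p = 0.059). Of 35 metabotropic, muscarinic and histamine receptor genes 0 were called, with 4 higher and 0 lower at the unadjusted level and 0 by DESeq2. Grm5, a receptor of pyramidal cells, was at 164, 163 and 198 CPM in Control and 154, 213, 274, 245 and 243 CPM in D+V (log2 0.37, SE 0.14, adjusted p = 0.187), with library 1 below the Control range and the rest above it. Of 51 synaptic vesicle and release genes 0 were called in edgeR, 8 and 7 lay higher and lower at an unadjusted p under 0.05, and DESeq2 called 1 higher. Of 50 potassium and calcium channel genes 0 were called, with 7 in each direction at the unadjusted level and 2 higher and 1 lower by DESeq2. In limma voom, which called 1882 genes in all (1276 higher and 606 lower), these 4 lists held 7 higher and 3 lower, 3 higher and 0 lower, 10 higher and 2 lower, and 9 higher and 3 lower calls.

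The spine list held 2 falls and 0 rises among 54 genes (median 0.01), Dbn1 and Sh2d5. Their changes were -0.20 and -0.19 with trends removed. Splicing factor and nuclear speckle genes held 3 falls and 0 rises among 58 (median -0.03). Beside Clasrp and Ppp1r10 this was Snrnp70, the 70 kDa protein of the U1 particle, from 83.8, 80.6 and 78.2 CPM to 69.2, 63.8, 63.99, 73.5 and 61.5 CPM (log2 -0.28, SE 0.06, adjusted p = 0.0411). After trend removal these 3 were at -0.31, -0.27 and -0.11. Leng8, which belongs to no list and was named for its size of change, fell from 68.5, 71.1 and 77.9992 CPM to 46.9, 55.3, 61.1, 55.8 and 51.3 CPM (log2 -0.42, SE 0.10, adjusted p = 0.0437). Its exons overlap those of Leng9 on the opposite strand, and where counting does not use strand the reads of these genes cannot be told apart.

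Other falls were spread over several roles. Por, the reductase that passes electrons to P450 enzymes and squalene monooxygenase, fell from 101, 90.4 and 94.4 CPM to 77.1, 78.3, 77.7, 80.1 and 80.1 CPM (log2 -0.28, SE 0.06, adjusted p = 0.0405), while Hmgcs1, the early enzyme of sterol synthesis, rose from 187, 178 and 190.0 CPM to 196, 256, 254, 223 and 260.3 CPM (log2 0.36, SE 0.08, adjusted p = 0.0395). Both belong to a list of 38 sterol and P450 genes with a median of -0.02. The forkhead factor Foxp4 (log2 -0.35, SE 0.08, adjusted p = 0.0411), the galactosyltransferase B4galt3 (log2 -0.31, SE 0.07), Nrip2 (log2 -0.42, SE 0.10), Pnmal2 (log2 -0.26, SE 0.06) and the tRNA dihydrouridine synthase Dus3l (log2 -0.27, SE 0.06) fell at adjusted p-values of 0.0411 to 0.0424. Pnmal2 stood at 559, 566 and 536 CPM in Control and 454, 428, 460.5, 495 and 473 CPM in D+V, with no overlap. The largest fall of all was that of Mpp4, a scaffold of photoreceptor synapses, chosen after its values were seen (log2 -1.82, SE 0.37, adjusted p = 0.0312). It rested on few counts, 0.836, 2.44 and 1.02 CPM in Control and 0.395, 0.451, 0.204, 0.433 and 0.494 CPM in D+V. Control library 2, the highest, also held the highest levels of the photoreceptor and pineal genes Rbp3 (7.13 CPM against 0 to 0.437 CPM in the other 7 libraries) and Tph1 (4.79 CPM against 0.044 to 0.535 CPM). Crx, Sag, Pde6b, Pde6g, Gnb3, Asmt and Lhx4 were highest there too, most of them at few counts. Other genes of this kind were not. Rom1, Cngb1 and Pdc were highest in D+V library 2, Chrna3 in Control library 3, Aanat in D+V library 1 and Gngt1 in D+V library 5. Of these, Pdc and Gngt1 rested on 1 count each, and Aanat had at most 4 counts in a library. The part of these genes in the Mpp4 result was not tested.

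Genes of the vessel wall had the lowest median among the lists with a call. Of 28 pericyte and smooth muscle genes 1 fell, Pdgfrb, but 26 had a negative change, and the list median was -0.44, and -0.39 with GC and length trends removed. At an unadjusted p under 0.05, 13 (46.4%) were lower and 0 higher, against 6.86% and 10.8% of all genes tested. The summed level of the list was 403, 545 and 394 CPM in Control and 369, 303, 339.6, 422 and 306 CPM in D+V. D+V library 4 lay inside the Control range and the others were below it. Members that missed the threshold were the actin-binding Synpo2 (log2 -0.64, SE 0.17, adjusted p = 0.0654), the adhesion molecule Mcam (log2 -0.43, SE 0.12, adjusted p = 0.076) and the proteoglycan Cspg4 of pericytes and oligodendrocyte precursors (log2 -0.37, SE 0.11, adjusted p = 0.0885). Synpo2 is also on the thalamus and habenula list, where 25 of 29 genes had a negative change. Synpo2 was at 11.5, 14.5 and 9.14 CPM in Control and 8.68, 8.26, 6.85, 5.75 and 8.22 CPM in D+V, and Mcam at 33.1, 27.9 and 27.5 CPM and 20.8, 25.4, 24.8, 20.3 and 18.2 CPM. The list median was between -0.34 and -0.54 when each of the 8 libraries was left out in turn.

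Among 38 endothelial genes Cldn5, the main claudin of the blood-brain barrier, fell (log2 -0.58, SE 0.13, adjusted p = 0.0411). It was at 46.9, 46.5 and 38.3 CPM in Control and 39.4, 22.8, 27.8, 30.3 and 26.3 CPM in D+V, where library 1 overlapped the Control range and the other 4 did not. At an unadjusted p under 0.05, 9 (23.7%) were lower and 0 higher, against 6.86% and 10.8% of all genes tested. The list median was -0.18 (-0.13 after trend removal). It was -0.06 without Control library 2 and between -0.13 and -0.25 without each of the others. The coreceptor Eng (log2 -0.53, SE 0.14, adjusted p = 0.0731) and the guidance receptor Robo4 (log2 -0.55, SE 0.16, adjusted p = 0.0814) were not called. Robo4 was at 7.13, 8.89 and 7.39 CPM in Control and 5.38, 5.77, 4.75, 5.67 and 5.01 CPM in D+V, without overlap. Of 39 Pdgf ligand, receptor and vessel growth factor genes 2 fell and 1 rose (median -0.01). Beside Pdgfrb the Notch ligand Jag2 fell from 36.4, 34.04 and 33.3 CPM to 24.7, 25.2, 29.04, 30.1 and 27.3 CPM (log2 -0.34, SE 0.08, adjusted p = 0.043). Nrp1, a coreceptor of Vegf and semaphorins that neurons express too, rose from 37.3, 37.97 and 39.02 CPM to 43.9, 50.9, 61.6, 53.2 and 58.5 CPM (log2 0.49, SE 0.11, adjusted p = 0.0405), and its change of 0.51 after trend removal was no smaller. Vegfa was not called (log2 0.33, SE 0.10, adjusted p = 0.11). Summed endothelial markers overlapped between the groups, at 1518 to 1730 CPM in Control and 1385 to 1634 CPM in D+V, and summed meningeal and collagen genes were at 811 to 1775 CPM and 1007 to 1421 CPM. Whether the amount of vessel or meninges in the dissected tissue moved with Pdgfrb and Cldn5 was not tested beyond these sums.

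Immediate early genes were not called. The share lower at an unadjusted p under 0.05 was 29.6%, against 6.86% over all genes tested, and 15.2% among the effector genes below. Of 27 tested, 0 passed in edgeR and 0 in DESeq2, with 0 higher and 8 lower at an unadjusted p under 0.05, and the list median was -0.21 (-0.05 after trend removal, -0.13 without Control library 2 and -0.32 without Control library 1). Fos stood at 15.1, 17.6 and 16.2 CPM in Control and 13.4, 17.2, 10.7, 11.2 and 10.1 CPM in D+V (log2 -0.38, SE 0.22, adjusted p = 0.398), and the ranges overlapped. Npas4, a factor induced by calcium entry in neurons, was at 18.8, 12.4 and 13.5 CPM and 7.55, 9.61, 10.1, 10.7 and 8.90 CPM, lower in every D+V library without passing the test (log2 -0.67, SE 0.22, adjusted p = 0.123). Egr2 was at 3.17, 3.97 and 3.74 CPM and 2.42, 2.21, 0.814, 1.02 and 2.66 CPM (log2 -0.99, SE 0.30, adjusted p = 0.0967), and Egr1 at 116, 143 and 160.1 CPM and 107, 137, 96.02, 133 and 97.9 CPM (log2 -0.29, SE 0.14, adjusted p = 0.282). Among 33 effector genes that follow neuronal activity 0 were called in edgeR and DESeq2 (2 higher and 5 lower at an unadjusted p under 0.05), with a median of -0.11 that was -0.18 without Control library 1, -0.05 without Control library 3 and -0.07 without D+V library 3. Arc, whose protein acts at recently active synapses, was at 116, 163 and 219.9 CPM and 135, 169, 91.7, 127 and 115 CPM (log2 -0.38, SE 0.24, adjusted p = 0.422), and Bdnf at 23.4, 40.1 and 40.4 CPM and 30.7, 36.7, 37.5, 35.7 and 36.2 CPM (log2 0.03, SE 0.17, adjusted p = 0.949). In limma voom 4 immediate early genes and 1 effector gene were called lower and 0 higher. All D+V values of Bdnf lay inside the Control range, and those of Arc overlapped it.

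Stress response lists had no calls apart from the endoplasmic reticulum genes above. Shares higher and lower at an unadjusted p under 0.05 were 10.8% and 6.86% over all genes tested. By list they were 4% and 12% (glucocorticoid), 27.3% and 3.03% (heat shock), 11.8% and 5.88% (hypoxia) and 3.23% and 6.45% (inflammation). Of 25 glucocorticoid-responsive genes 0 were called in edgeR and DESeq2, with 1 higher and 3 lower at an unadjusted p under 0.05 and a median of -0.02. Fkbp5, a cochaperone that the glucocorticoid receptor induces, was at 50.9, 69.7 and 58.1 CPM in Control and 71.3, 60.9, 51.8, 77.4 and 64.9 CPM in D+V (log2 0.13, SE 0.11, adjusted p = 0.547). Sgk1 (log2 -0.13, SE 0.18) and Tsc22d3 (log2 0.07, SE 0.11) had adjusted p-values of 0.75 and 0.806. Of 33 heat shock and chaperone genes 0 were called in edgeR, 9 were higher and 1 lower at an unadjusted p under 0.05, and DESeq2 called 5 higher. Hsp90aa1 was at 694, 796 and 770.4 CPM and 958, 1020.4, 1151, 844 and 860.3 CPM, higher in all D+V libraries (log2 0.36, SE 0.10, adjusted p = 0.0732), and Dnaja1 at 247, 259 and 257 CPM and 365, 279, 308, 320.1 and 283 CPM (log2 0.29, SE 0.08, adjusted p = 0.0729). Their changes after trend removal were 0.25 and 0.07. Of 34 hypoxia and glycolysis genes 0 were called in edgeR (4 higher and 2 lower at the unadjusted level, 3 higher and 1 lower by DESeq2), with Hif1a at 57.4, 71.3 and 71.6 CPM and 78.2, 86.5, 78.6, 84.1 and 83.7 CPM (log2 0.30, SE 0.07, adjusted p = 0.0548). Of 31 inflammation and interferon genes 0 were called by either tool, with 1 higher and 2 lower at the unadjusted level. The glucocorticoid, heat shock, hypoxia and inflammation lists held 1, 4, 3 and 0 higher and 0, 2, 2 and 1 lower calls in limma voom.

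Genes of ribosomes and respiration stayed without calls. Counts at the unadjusted level are to be read beside 10.8% higher and 6.86% lower over all genes tested. In edgeR 0 of 82 cytosolic ribosomal protein genes were called, with 0 in either direction at an unadjusted p under 0.05 and 0 by DESeq2 (median -0.02). Of 78 mitochondrial ribosomal protein genes 63 had a negative change (median -0.09), 0 were called, 1 was higher and 6 lower at the unadjusted level, and DESeq2 called 1 lower. That median was -0.04 without Control library 1 and -0.16 without D+V library 1. Mrpl10 had the smallest p (log2 -0.22, SE 0.06, adjusted p = 0.0634), at 64.3, 60.9 and 63.7 CPM and 55.98, 51.6, 52.3, 52.5 and 57.1 CPM, without overlap. Of 92 nuclear genes of oxidative phosphorylation 0 were called, 1 was higher at the unadjusted level, and DESeq2 called 1 higher (median -0.02). Among 48 proteasome genes 0 were called, 4 were higher and 2 lower at the unadjusted level, and DESeq2 called 2 higher. Of 55 clustered protocadherin genes 42 had a positive change (median 0.13, and 0.07 after trend removal), 0 were called by edgeR and DESeq2, and 3 were higher and 1 lower at the unadjusted level. Their median was 0.07 without D+V library 3 and 0.20 without D+V library 1. The 13 mitochondrially encoded genes had a median of 0.10 that was -0.07 after trend removal, with 0 calls by either tool and 2 higher at the unadjusted level, and it was 0.07, 0.20 and 0.05 without Control libraries 1, 2 and 3. In limma voom the ribosomal, mitochondrial ribosomal, respiratory, proteasome, protocadherin and mitochondrially encoded lists held 0, 0, 1, 2, 3 and 1 higher and 0, 7, 2, 2, 1 and 0 lower calls.

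Markers of neighbouring tissue are given because they show what else the samples held. Over all genes tested, 10.8% were higher and 6.86% lower at an unadjusted p under 0.05. Choroid plexus genes had a positive change in 28 of 29 (median 1.28) and 0 calls in edgeR and DESeq2, with 0 at an unadjusted p under 0.05. Without D+V library 2 that median was -0.29, and it was -0.01 in limma voom. Summed, they were at 861, 1846 and 446 CPM in Control and 533, 13395, 490.2, 479 and 2092 CPM in D+V, and D+V libraries 2 and 5 alone lay above the Control range. Of 11 red blood cell genes 0 were called in edgeR (6 higher at the unadjusted level, 5 by DESeq2), with sums of 1030 to 1231 CPM in Control and 954 to 3785 CPM in D+V. Hbb-bs, a beta globin whose near-identical copy Hbb-bt can share its reads, was at 206, 261 and 203 CPM and 517, 1367, 647, 170.0 and 485 CPM (log2 1.51, SE 0.47, adjusted p = 0.117). Thalamus and habenula genes leaned the other way, with 25 of 29 negative (median -0.64), 0 calls in edgeR, 6 lower at the unadjusted level and 1 lower by DESeq2. That median was -0.36, -0.37 and -0.39 without D+V library 4, D+V library 2 and Control library 1. Their sums overlapped, at 341 to 503 CPM in Control and 302 to 399.6 CPM in D+V, and those of striatum genes did too (525 to 642 CPM and 487 to 606 CPM, 0 of 23 called, 5 lower at the unadjusted level and 1 by DESeq2). Calls by limma voom were 0 for choroid plexus, 2 higher for red blood cells, 1 higher and 7 lower for thalamus and habenula, and 3 lower for striatum. Without D+V library 2, 115 genes were called, 83 of them among the 138 refitted, and without the 5 choroid-rich libraries of any group 1 was called.

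Cell types of the hippocampus itself showed few calls. Their unadjusted counts are set against 10.8% higher and 6.86% lower over all genes tested. Among 28 CA3 and CA2 genes 3 rose (median -0.03), Elavl2, Nectin3 and St18. St18, a zinc finger factor also on the oligodendrocyte list, went from 18.05, 22.3 and 21.9 CPM to 26.4, 28.9, 36.98, 31.4 and 32.9 CPM (log2 0.59, SE 0.12, adjusted p = 0.0367). Of 30 astrocyte genes 24 had a positive change (median 0.09, and 0.11 after trend removal). The median was 0.03 without D+V library 2, -0.01 without D+V libraries 2 and 5, and 0.14 without Control library 1 or D+V library 4. Aqp4, the water channel of astrocyte endfeet on vessels, rose from 116, 117 and 137 CPM to 147, 191, 189.7, 149 and 153 CPM (log2 0.43, SE 0.10, adjusted p = 0.0411). All 5 D+V libraries were above Control for Aqp4. Of 33 oligodendrocyte genes only St18 passed (median -0.02). Of 25 granule cell genes 0 were called in edgeR, with 1 higher and 7 lower at an unadjusted p under 0.05 and 1 lower by DESeq2, and of 20 CA1 genes 0 were called by either tool, with 1 higher at that level. Of 35 interneuron genes 0 were called in edgeR (4 higher and 1 lower at the unadjusted level, 2 higher by DESeq2), and of 28 microglia genes 0 (4 higher and 1 lower, 2 higher by DESeq2). In limma voom the granule cell, CA1, interneuron and microglia lists held 1, 1, 3 and 3 higher and 3, 0, 0 and 1 lower calls. P2ry12 of microglia was at 28.9, 36.97 and 34.4 CPM in Control and 43.6, 47.7, 39.6, 38.7 and 41.96 CPM in D+V (log2 0.34, SE 0.10, adjusted p = 0.0848). Dio2, the astrocyte deiodinase that makes active thyroid hormone, rose (log2 0.57, SE 0.14, adjusted p = 0.049), chosen after its values were seen.

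**Figure D4:**
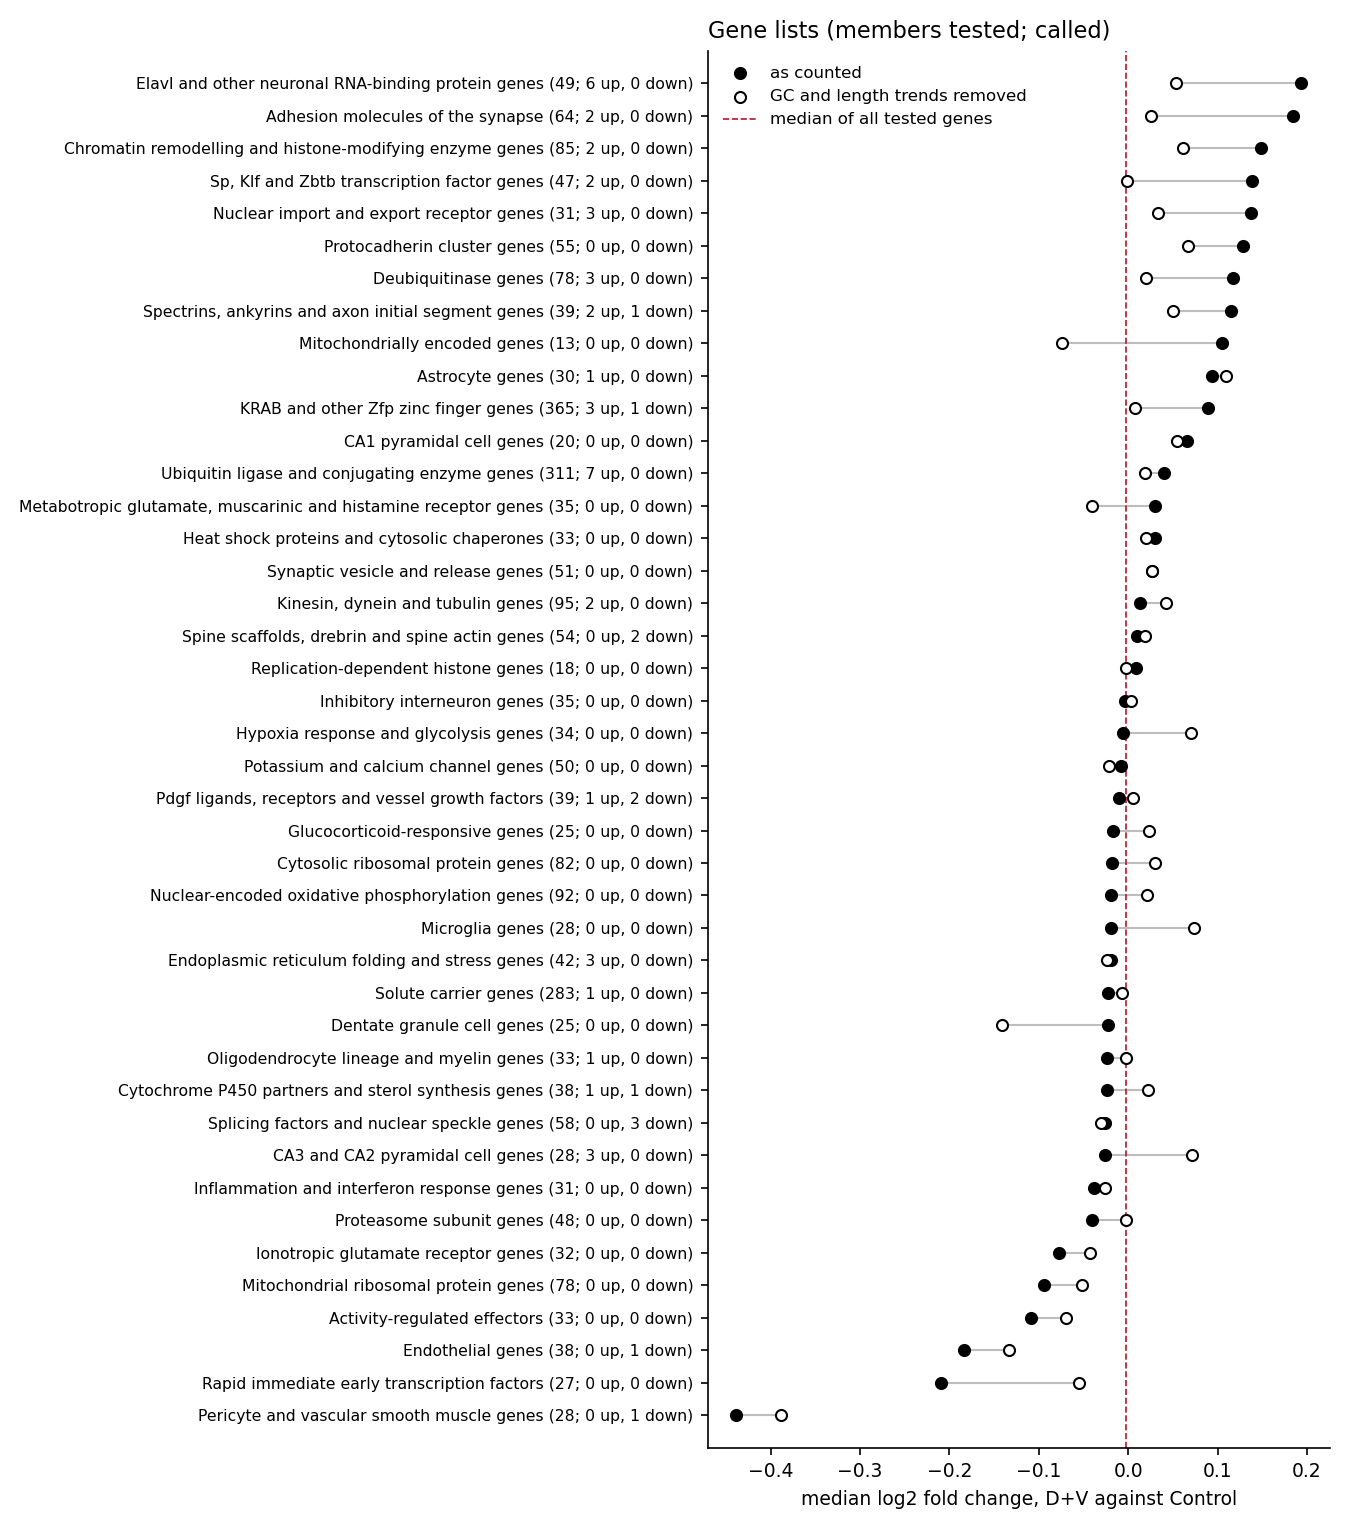
Median log2 fold change of D+V over Control for gene lists other than those of neighbouring tissue, as counted (filled) and with GC and length trends removed (open), with the members tested and called in brackets and a dashed line at the median of all genes. The pericyte and smooth muscle list stays low under both (-0.44 and -0.39), whereas the RNA-binding list moves from 0.19 to 0.05.

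The other rotated groups show how far these changes were those of D+V. In direct tests of D+V against S-V 0 of 14763 genes (0%) passed in edgeR, with 1892 (12.8%) at an unadjusted p under 0.05 148 called by DESeq2 and 1943 by limma voom. Against D-V 0 (0%) passed in edgeR, with 2003 (13.6%) at the unadjusted level, 277 by DESeq2 and 819 by limma voom. Without D+V library 1 these counts were 1480 of 14678 (10.1%) against S-V and 1230 of 14678 (8.38%) against D-V. With GC and length trends removed as well they were 251 and 180. With trends kept, leaving out D+V library 2, 3, 4 or 5 gave 0 calls against S-V. Against D-V it gave 62 calls without D+V library 4 and 0 without library 2, 3 or 5. The same 5 D+V libraries enter all 3 comparisons, and the rotated groups share their controls, so the values below are set side by side only.

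Elavl2 averaged 47.7 CPM in Control, 63.2 CPM in S-V, 79.02 CPM in D+V and 65.7 CPM in D-V. Its change over Control was 0.41 in S-V (adjusted p = 0.157) and 0.46 in D-V (adjusted p = 0.545), neither called. D+V exceeded S-V by 0.32 (adjusted p = 0.189), and by 0.37 without D+V library 1 (adjusted p = 0.0118). Pdgfrb averaged 31.3, 22.3, 22.03 and 27.4 CPM in the same order. D+V and S-V differed by -0.01 (adjusted p = 0.961) and D+V and D-V by -0.32 (adjusted p = 0.0976). Without D+V library 1 the difference from D-V was -0.29 (adjusted p = 0.0212). Dbn1 averaged 329.8, 264, 259 and 305 CPM, so its S-V level too was below Control (log2 -0.32, adjusted p = 0.0929, not called).

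Ube3a and Cldn5 had another order. Ube3a averaged 86.9, 92.3, 132 and 91.6 CPM in Control, S-V, D+V and D-V. D+V exceeded S-V by 0.52 and D-V by 0.53 (adjusted p = 0.189 and 0.0976). Without D+V library 1 these were 0.63 and 0.64 (adjusted p = 0.00162 and 0.000904), both called. Cldn5 averaged 43.9, 37.9, 29.3 and 38.5 CPM. D+V was lower than S-V by log2 -0.50 and than D-V by -0.52 without library 1 (adjusted p = 0.00413 and 0.00344), and with it by -0.37 and -0.39, not called (adjusted p = 0.229 and 0.14). Library 1 held the lowest D+V value of Ube3a and the highest of Cldn5, so leaving it out widens these differences by construction. The values without it are no separate support.

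When D+V library 1 was left out and the GC and length trends were removed together, an alternative added after seeing the data, 21 genes passed against Control, 10 higher and 11 lower, and 6 of them were among the 138. Elavl2 (log2 0.53), Nrp1 (0.57) and Pdgfrb (-0.49) were called in this setting too. Pcp4, a calmodulin regulator of CA2 and granule cells, had the smallest p (log2 -0.55, adjusted p = 0.00302). It was at 133, 127 and 97.1 CPM in Control and 128, 102, 71.9, 66.4 and 82.3 CPM in D+V, and libraries 1 and 2 lay within the Control range. With the replicate block and trend removal, both on all libraries, Pcp4 was the 1 gene called (log2 -0.44, adjusted p = 0.0436). Camk4, a nuclear calcium and calmodulin kinase, was higher (log2 0.77, adjusted p = 0.0475), at 16.1, 15.9 and 17.8 CPM and 18.2, 24.6, 34.4, 20.8 and 32.9 CPM. In the same setting it exceeded S-V by 0.80 and D-V by 0.66 (adjusted p = 0.012 and 0.0183).

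Others in that setting were Tmed7, a cargo receptor of the early secretory pathway (0.83), the kinase Map3k9 (1.01), Klhl11 (1.23) and the adhesion molecule Cntnap5c (1.196) upward. Their D+V library 1 values were 22.3, 6.17, 7.40 and 3.11 CPM, each within the Control range or below it, while the other 4 D+V libraries were above the Control range in all 4 genes. Downward were Synpo2 (-0.95), the chemokine Cxcl12 (-0.44), the Wnt inhibitor Apcdd1 of brain vessels (-0.52), the glial factor Nfia (-0.47), the chaperone Erp29 (-0.48) and the vesicle protein Sv2c (-0.57). Cxcl12 was at 83.2, 92.7 and 91.8 CPM in Control and 84.1, 65.9, 65.6, 81.97 and 65.01 CPM in D+V. Synpo2 is on the pericyte list and on the thalamus and habenula list.

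**Figure D5:**
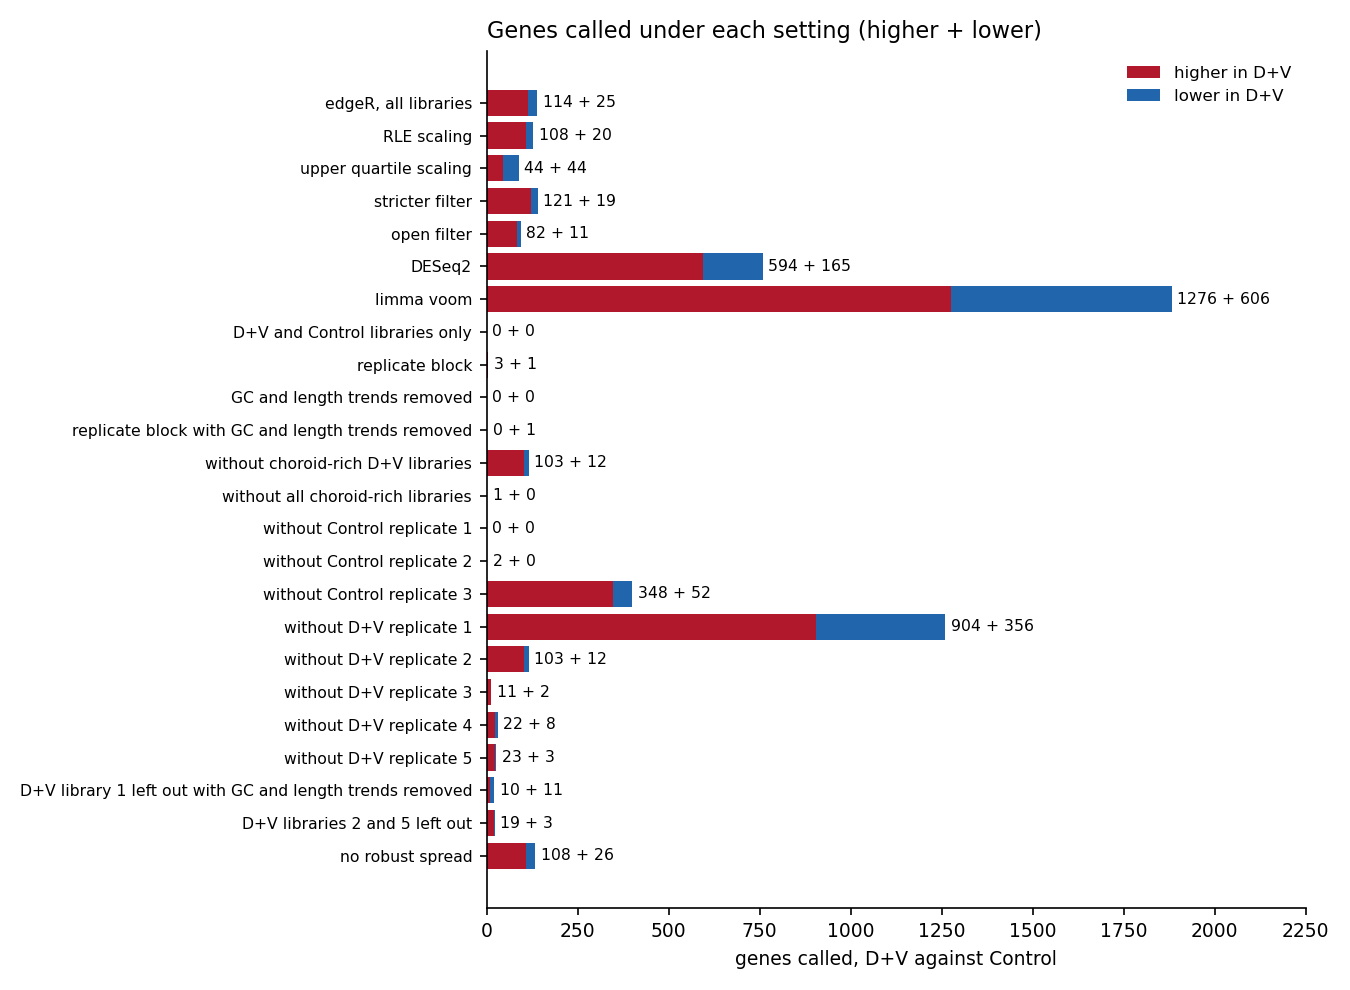
Number of genes called higher and lower in D+V against Control under each setting (stacked bars, with both counts printed). The count is 139 in edgeR with all libraries, 4 with the replicate block, 0 with GC and length trends removed and 1260 without D+V library 1.

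Promoters were looked at because Sp3, which binds GC boxes, was among the rises. RefSeq promoters (build GRCm38.p6, 250 bases before to 50 after the start) were matched by symbol for 85 of the 114 rises, 19 of the 25 falls and 11467 of all genes tested. Searching both strands, the GC box letters GGGCGG were found in 69.4% of the promoters of rises, 89.5% of those of falls and 63.0% of all tested. The CCAAT letters were found in 31.8%, 21.1% and 38.3%, the cAMP response element TGACGTCA in 3.53%, 5.26% and 3.11%, and the ETS letters CCGGAAG in 22.4%, 10.53% and 16.4%. Promoter GC content had medians of 63.7%, 61.3% and 60.7%, with the rises highest, whereas they were lowest in the transcripts.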

How the data were processed

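RNA of the mouse hippocampus was measured by sequencing of polyadenylated RNA (Trizol, oligo(dT) beads, an NEBNext Ultra kit and an Illumina NovaSeq instrument, per the labels' protocols). What the authors deposited was a table of estimated counts, with fractional values, genes in rows and a column for each library. The submitters' processing notes name HISAT2, StringTie 1.3.1, Bowtie2 2.2.8 and DESeq2 without their roles. Build, annotation and strand of counting were not given in the sources used here.

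Counts were rounded and genes kept by filterByExpr (14763 of 22063, 99.97% of counts). Fits used edgeR 4.0.16 in R 4.3.3 (TMM, robust quasi-likelihood F test, all 18 libraries in 1 fit of 4 group means, Benjamini-Hochberg over all genes). Common biological variation was 15.4%. DESeq2 1.42.0 and limma 3.58.1 (voom with quality weights) were alternatives, as were other scaling, filters, the 8 libraries alone, left-out libraries, a replicate block, and per-library splines (5 degrees of freedom) on GC content and log2 length of the longest coding transcript of GENCODE M21 as an offset. CPM are from TMM-scaled libraries. Only the main edgeR fit was tested on simulated counts, which had a single dispersion and no GC trend, outlying library or block. The alternatives were not tested in this way. Intervals and p-values do not separate PCR copies, since no molecular identifiers were used.

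Libraries were grouped by the labels. Replicate numbers come from the titles, and no label says what they share. Deviations from the group means of same-numbered D+V and Control libraries correlated at 0.222, 0.253 and 0.309, each highest with its own number. A block on the number was therefore fitted as an alternative. The main fit and the permutation test of slopes are unpaired. The block covered all 18 libraries, but this pairing was checked only for numbers 1 to 3 of D+V and Control.

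Genes named by the rule have a regular symbol and average a log2 CPM of 1 or more. They are the 15 rises and 15 falls of smallest p, the 5 rises and 5 falls of largest change, all called members of 50 gene lists, the 3 members of smallest p of each list described, and Fos, Arc, Egr1, Npas4, Bdnf, Fkbp5, Sgk1 and Tsc22d3. Others, such as Mpp4, Rbp3 and Tph1, which lie under that level, were added after their values were seen. Results for some genes that this rule selects are left out here. The members, lists and rule were chosen with earlier results of these data known.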

Additional observations from a re-analysis of the deposited data

Results flagged for a closer look

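Of 169 quantities examined over the 5 D+V libraries, 14 had a highest or lowest library far from the other 4 (gap over range above Dixon's critical value of 0.71 for 5 samples), where chance gives about 1 in 20. D+V library 1 was the distant one in 7 of them. Suz12 was at 26.7 CPM there and at 33.2 to 35.7 CPM in the others, Bdnf at 30.7 CPM against 35.7 to 37.5 CPM, Slc4a10 at 178 CPM against 241 to 266 CPM, and Trim23 at 55.4 CPM against 69.1 to 72.3 CPM. Cox5a (99.8 CPM against 71.3 to 79.0 CPM) and Fxr1 (55.6 CPM against 49.5 to 51.1 CPM) were highest in library 1. Its GC slope of -0.00438 stood above the other 4, which were between -0.103 and -0.0754.

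D+V library 2 was distant in 4. Its choroid plexus marker sum was 13395 CPM against 479 to 2092 CPM, with Prlr at 81.3 CPM against 2.47 to 10.9998 CPM and Kcnj13 at 55.1 CPM against 0.512 to 6.30 CPM, and Fgf12 was lower there, at 69.8 CPM against 84.6 to 89.7 CPM. The remaining 3 were mt-Atp8 in D+V library 5 (363 CPM against 79.9 to 136 CPM), Hspa13 in D+V library 4 (54.8 CPM against 49.5 to 51.0 CPM) and Rrm2b in D+V library 3 (47.7 CPM against 44.2 to 45.2 CPM).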

How the results depend on the processing

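The 138 called genes that were refitted (137 under the stricter filter) kept their direction under all settings that do not remove GC and length trends, and 137 did with trends removed. Serbp1 changed sign (-0.047, and -0.056 with the block). When D+V library 1 was also left out, Serbp1 (-0.17), Tmem33 (-0.031), Syncrip (-0.023), Sugt1 (-0.024) and Vma21 (-0.035) did. Which genes passed changed more. Against Control the count of 139 became 88 with upper quartile scaling, 759 with DESeq2, 1882 with limma voom, 0 with the 8 libraries alone (1585 at an unadjusted p under 0.05), 4 with the replicate block, 0 with trends removed, 1 with the block and trends removed, and 93 with an open filter, where 82 rose. It was 0 to 1260 when each library was left out in turn, and, for alternatives added after seeing the data, 1 without the choroid-rich libraries, 21 without D+V library 1 and trends, and 22 without D+V libraries 2 and 5. Against S-V the count of 0 became 148 with DESeq2, 1943 with voom, 0 to 1480 with a library left out and 251 without D+V library 1 and trends, and against D-V 1 with upper quartile scaling, 277, 819, 0 to 1230 (62 without D+V library 4) and 180. The replicate block gave 0 in both of these. The causes of these shifts were not tested. The difference in GC slope was -0.19 with genes of higher counts only.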
